A study of Saccharomyces cerevisiae with 12 samples.

Results

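The genes described here encode the enzymes that carry glucose carbon through glycolysis, fermentation, acetate and acetyl-CoA formation and gluconeogenesis in budding yeast (Saccharomyces cerevisiae). They were taken by systematic name, 32 genes of the 7127 features in the count table, from a list of pathway enzymes drawn up with earlier results of these data known, and all 32 passed the filter on low counts. Of these, 16 belong to glycolysis, 7 to fermentation, 5 to acetate and acetyl-CoA formation and 4 to gluconeogenesis and pyruvate carboxylation. Poly(A) RNA was sequenced in 12 libraries, 3 per group. The 4 groups, each kept for 3 hours, were the S10D-labelled strain with estradiol (S10D E2) or ethanol (S10D EtOH) and the reference strain with estradiol (reference E2) or ethanol (reference EtOH). All 4 groups are MATa haploids and carry lox sites on both sides of the centromere of chromosome IV (lox-CEN4-lox:KanMX, or loxCEN4lox:KanMX in the S10D label). All also carry a hormone-dependent Cre recombinase (GDP-creEBD78:LEU2, or creEDB78 in the S10D label), with which estradiol leads to excision of that centromere. The reference strain also carries deletions of his3, leu2, ura3 and met15. The S10D-labelled strain has a construct for histone H3 with serine 10 changed to aspartate in place of a histone gene pair, hht2-hhf2::[HHT-S10D-HHFS]-URA3. It further holds a bar1 deletion, TetO at trp1 (TRP1), LacO at lys4 (hphNT1), LacR-GFP at his3 (HIS3), TetR-mRFP, Ade1 and leu2-x. The strains therefore differ at many loci besides the histone gene, and a difference between them cannot be assigned to S10D. No group lacks the lox sites or the recombinase, so loss of the centromere, Cre activity and the hormone itself cannot be told apart. The labels state neither the dose of estradiol or ethanol nor the carbon source, and ethanol is itself a substrate or product of several of the enzymes described.

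Glycolysis splits glucose into pyruvate with a net gain of ATP and NADH. When glucose is plentiful, yeast turns most pyruvate into ethanol through pyruvate decarboxylase and alcohol dehydrogenase even in air, and the glycolytic genes are among the most strongly expressed of the genome. Aldehyde dehydrogenases and acetyl-CoA synthetases lead from acetaldehyde to acetyl-CoA, and a few enzymes of gluconeogenesis, repressed by glucose, run carbon back towards glucose when only ethanol, acetate or other such sources remain. Many steps have isozymes, which are enzymes for the same reaction made from different genes.

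The libraries held between 9362173 and 11806239 counts, and the 32 genes took between 6.28% and 7.21% of them. MATa identity was checked with markers: the 4 a-cell genes summed to 1750.3 to 1786 CPM (counts scaled to library size with TMM factors) in S10D E2, 1923 to 1972 in S10D EtOH, 2462 to 2548 in reference E2 and 2886 to 3426 in reference EtOH. The 3 alpha-cell genes summed to at most 11.9 CPM in any library, with 1 of the 3 at 0 in at least 1 library of S10D EtOH. Replicate 3 of reference EtOH stood apart: the chi-square per degree of freedom between its counts and those of its replicates was 31.5 and 32.5, against 1.40 to 5.00 in the 10 other pairs of replicates. In it the 32 genes were a median of 0.13 higher on the log2 scale than in replicates 1 and 2, with 22 of 32 above, and 15 of the 16 glycolytic genes were above with a median of 0.17. Counts of calls are therefore also given without it, and single values where it moved a called value by over 1.5 times or changed a call. SCR1, the RNA of the signal recognition particle, which carries no poly(A) tail, had 2360 counts in that replicate and 780 and 876 in the other two of its group. In the other groups it had 146 to 361 counts in S10D E2, 83 to 123 in S10D EtOH and 564 to 752 in reference E2, so that it was lower in every S10D-labelled library than in any reference library. Its part in the differences between strains and in the values of that replicate was not tested. Nothing in the labels says that replicates came from separate cultures, so p-values measure the spread between these libraries, which may be technical. In bulk RNA, fewer cells that express a gene and less RNA per cell cannot be told apart. How reads shared by isozymes were assigned is not given in the sources used here, so values of near-identical isozymes are uncertain where their sequences coincide.

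Levels were compared between genes as TMM-scaled CPM per kb of coding sequence, the mean of 3 libraries with its SD. TDH3, the main glyceraldehyde-3-phosphate dehydrogenase (converting a triose phosphate while making NADH), was at 11228 ± 263 in S10D E2, 11946 ± 302 in S10D EtOH, 9908 ± 486 in reference E2 and 9587 ± 628 in reference EtOH. Fructose-bisphosphate aldolase (FBA1) followed in the reference strain at 7774 ± 245 CPM per kb in E2 and 8675 ± 681 in EtOH. In the S10D-labelled strain the place after TDH3 was held by PDC1, the main pyruvate decarboxylase, at 7343 ± 80.6 CPM per kb in E2 and 7462 ± 139.9 in EtOH. In reference EtOH, the neighbours FBA1 and GPM1 (7722 ± 1304 CPM per kb) lay within their SDs of each other. There were 12 genes over 1000 CPM per kb, which held 89.6% to 90.8% of the counts of all 32, and 5 genes under 20 (both by the mean of the 4 group means): PDC6, ADH2, ACS1, FBP1 and PCK1, all known to be low or repressed on glucose. The other 15 lay between.

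**Figure D1:**
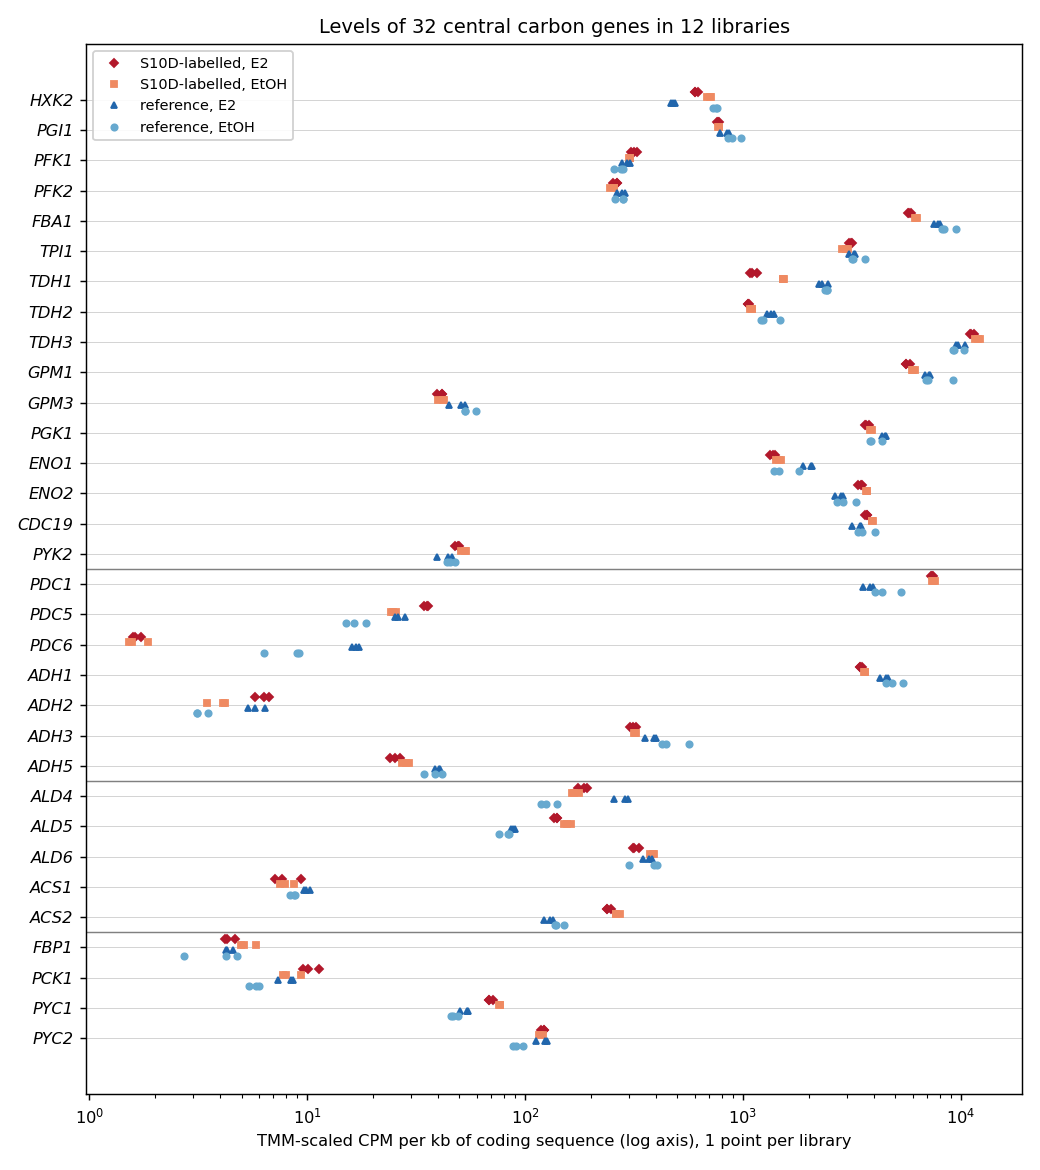
Level of each of the 32 genes in each of the 12 libraries, as TMM-scaled CPM per kb of coding sequence on a log axis, with 1 point per library and genes ordered by pathway step. The 12 genes over 1000 CPM per kb sit to the right, and the low isozymes PDC6, ADH2 and ACS1 with FBP1 and PCK1 to the left.

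RNA of the following genes was higher in E2 in the reference strain: ALD4 (mitochondrial acetaldehyde dehydrogenase), PDC6 and PDC5 (minor pyruvate decarboxylases), ADH2 (the alcohol dehydrogenase that consumes ethanol), PCK1 (phosphoenolpyruvate carboxykinase, committing carbon to gluconeogenesis), PYC1 and PYC2 (pyruvate carboxylases), ENO1 (an enolase) and PGK1 (phosphoglycerate kinase). RNA of HXK2 (the hexokinase that predominates on glucose), PDC1, ADH3 (mitochondrial alcohol dehydrogenase), FBA1 and ACS2 (the acetyl-CoA synthetase used on glucose) was lower. By edgeR's quasi-likelihood test with Benjamini-Hochberg adjustment over all 5990 features tested, at an adjusted p under 0.05, 9 of 32 were called higher and 5 lower, 14 in all, where 44.6% of all features tested were called (22.4% higher and 22.2% lower). The share of the 32 called is close to that background. Their median log2 fold change was 0.029, against -0.0035 over all features. By step, 2 of 16 glycolytic genes were called higher and 2 lower, 3 of 7 fermentation genes higher and 2 lower, 1 of 5 acetate genes higher and 1 lower, and 3 of 4 genes of gluconeogenesis higher. Without reference EtOH replicate 3, the count was 18 (12 higher and 6 lower), where 52.1% of all features were called. The added genes were PFK1 (0.14, adjusted p = 0.00739), TDH2 (0.13, adjusted p = 0.00368) and TDH3 (0.10, adjusted p = 0.0346), which were higher, and ALD6 (-0.11, adjusted p = 0.0322).

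In the S10D-labelled strain, few of these genes were called between treatments over all 12 libraries, and the count depended on the fit. PDC5 and ADH2 were higher in E2, and HXK2 and TDH1 (a glyceraldehyde-3-phosphate dehydrogenase) were lower. These 4 of 32, 2 in each direction, stand against 4.56% of all features called (2.42% higher and 2.14% lower), and the median log2 fold change of the 32 was -0.065, against 0.0012 over all features. By edgeR 0 of the 5 acetate genes and 0 of the 4 genes of gluconeogenesis were called, where 3 and 2 of them had an unadjusted p under 0.05 and DESeq2 called 2 and 1. DESeq2 called 7 of the 32 in all (2 higher and 5 lower) and 6.46% of all features. A fit of only this strain's 6 libraries called more of the 32, as given at the end, where 23.5% of all features were called. With edgeR and without reference EtOH replicate 3, 8 were called (2 higher and 6 lower), where 16.5% of all features were called. That library is in neither group compared and enters only through the filter, the scaling and the shared estimate of the spread. The added genes, all lower, were ALD5 (-0.18, adjusted p = 0.000996), ALD6 (-0.26, adjusted p = 1.6e-05), ACS2 (-0.14, adjusted p = 0.0113) and PYC1 (-0.14, adjusted p = 0.00958). PDC5 and ADH2 were called higher, and HXK2 lower, in both strains, which share no library but share the estimate of the spread. The share of all features called alike in both strains was not computed.

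**Figure D2:**
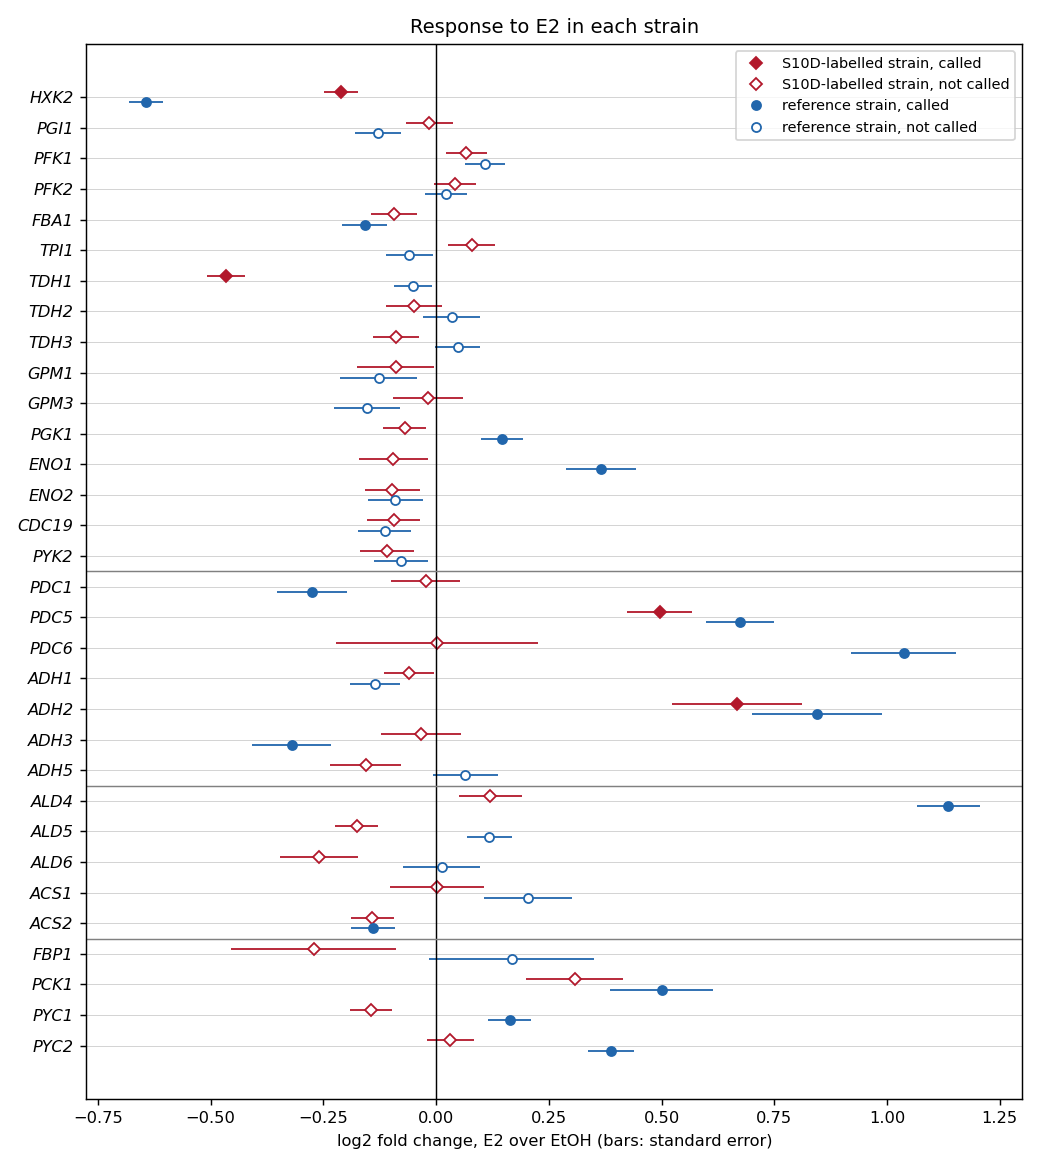
Log2 fold change of E2 over EtOH for each of the 32 genes in the S10D-labelled strain (red diamonds) and the reference strain (blue circles), with bars of the standard error and filled symbols for genes called at an adjusted p under 0.05. ALD4, PDC6, ADH2 and PDC5 lie farthest to the right in the reference strain and HXK2 farthest to the left, while in the S10D-labelled strain the filled symbols are HXK2, TDH1, PDC5 and ADH2.

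More of these genes were called between the strains than between the treatments. In EtOH, 12 of the 32 were called higher in the S10D-labelled strain and 11 lower, where 58.1% of all features were called (26.7% higher and 31.4% lower), and the median log2 fold change was 0.015, against -0.032 over all features. In E2, 10 were called higher and 13 lower, where 54.3% of all features were called (27.0% higher and 27.3% lower), with a median of -0.063, against -0.0052 over all features. Either count of 23 of 32 is above the background share, but the genes were not tested as a set. In both treatments, which share no library but share the estimate of the spread, 9 genes were called higher (TDH3, ENO2, PYK2, PDC1, PDC5, ALD5, ACS2, PCK1 and PYC1) and 9 lower (FBA1, TDH1, TDH2, GPM1, GPM3, PDC6, ADH1, ADH3 and ADH5), and ALD4 was called in opposite directions. The share of all features called alike in both treatments was not computed. Without reference EtOH replicate 3, the counts were 25 in EtOH (13 higher and 12 lower), where 65.4% of all features were called, and 28 in E2 (12 higher and 16 lower), where 66.3% were called. The added genes were HXK2 (lower, -0.11, adjusted p = 0.0111) and CDC19 (higher) in EtOH, and PFK1 and CDC19 (higher) with PGI1, PFK2 and ALD6 (lower) in E2. That group enters the comparison in E2 only through the filter, the scaling and the shared estimate of the spread.

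**Figure D3:**
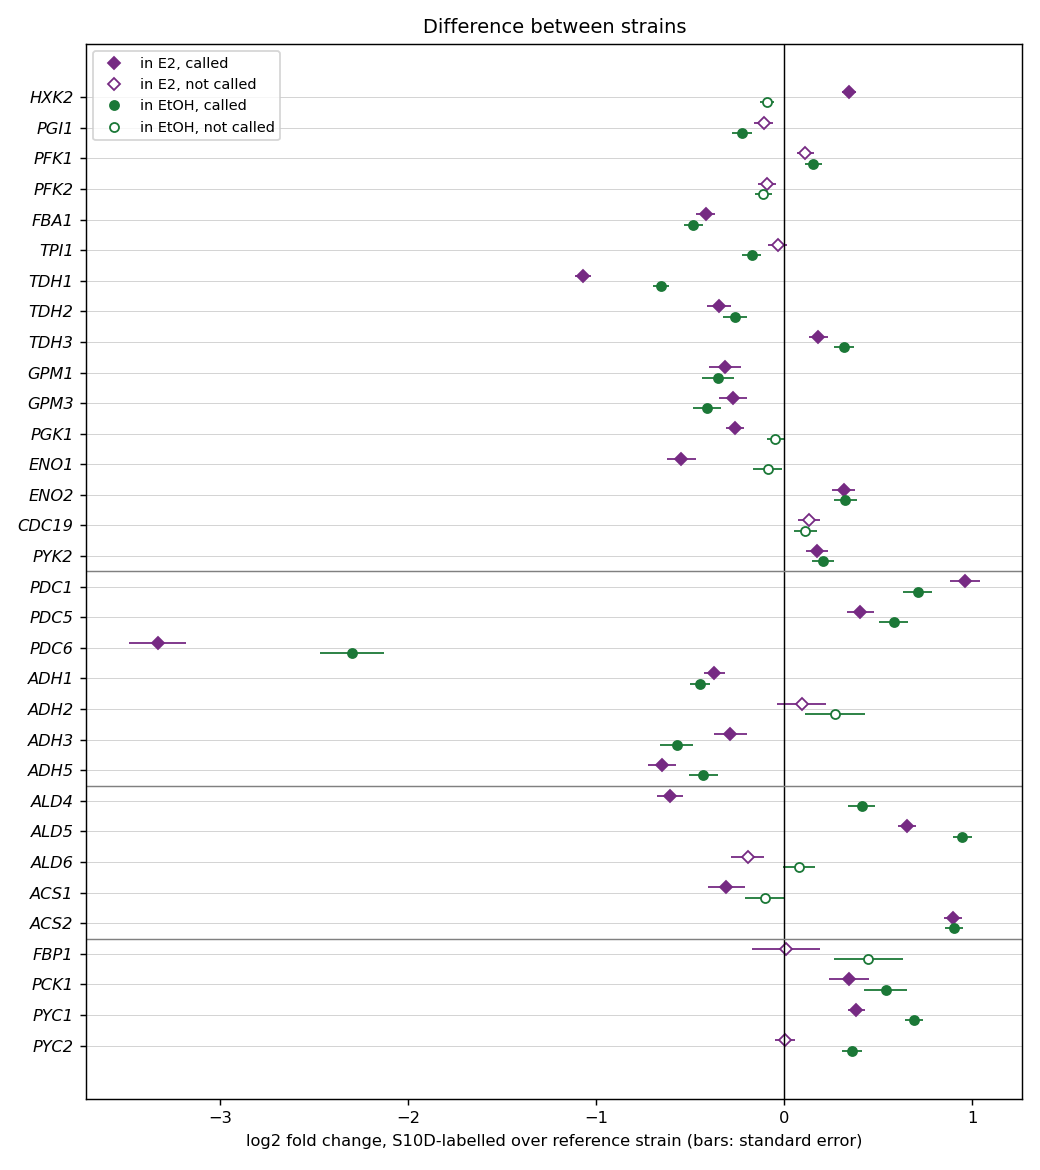
Log2 fold change of the S10D-labelled over the reference strain for each of the 32 genes in E2 (purple diamonds) and in EtOH (green circles), with bars of the standard error and filled symbols for genes called at an adjusted p under 0.05. PDC6 lies farthest to the left in both treatments, PDC1, ALD5 and ACS2 lie to the right in both, and ALD4 changes side.

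HXK2 (YGL253W, chrVII:23935-25395), which phosphorylates glucose and is also a part of glucose repression, had 906, 876 and 875 CPM in the S10D E2 libraries and 1044, 1004 and 1027 CPM in the S10D EtOH libraries. HXK2 in the reference strain had 685, 710.4 and 700.0 CPM in the E2 libraries and 1098, 1113 and 1064 CPM in the EtOH libraries. The lowest values were those of reference E2, and no group overlapped another of the same strain. In the S10D-labelled strain HXK2 fell in E2 by a fold of 1.16 (log2 fold change -0.21 ± 0.037, adjusted p = 0.00502 by edgeR), and in the reference strain by a fold of 1.56 (-0.64 ± 0.038, adjusted p = 2.22e-08); log2 fold changes are given with their standard error throughout. The decrease was smaller in the S10D-labelled strain, since the difference of the responses, S10D-labelled minus reference, was 0.43 ± 0.053, adjusted p = 6.63e-05. Phosphoglucose isomerase (PGI1, YBR196C, chrII:612236-613900), the next enzyme, ranged from 1263 to 1297 CPM in S10D E2, 1284 to 1298 in S10D EtOH, 1302 to 1435 in reference E2 and 1413 to 1629.8 in reference EtOH. It was called lower in the S10D-labelled strain in EtOH (-0.22 ± 0.052, adjusted p = 0.00207) and in no other comparison over all 12 libraries. Without reference EtOH replicate 3 it was also called lower there in E2 (-0.11, adjusted p = 0.00913).

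Phosphofructokinase commits sugar phosphate to glycolysis and is built of alpha (PFK1, YGR240C, chrVII:970771-973734) and beta (PFK2, YMR205C, chrXIII:671887-674766) subunits. PFK1 had 909.9, 964 and 934 CPM in the S10D E2 libraries, 884, 894 and 902 CPM in the S10D EtOH libraries, 829, 897 and 873 CPM in the reference E2 libraries and 759.6, 817 and 833 CPM in the reference EtOH libraries. PFK2 had 729.6, 761 and 759 CPM in the S10D E2 libraries, 738, 709 and 739 CPM in the S10D EtOH libraries, 763, 832 and 803 CPM in the reference E2 libraries and 741, 812 and 807 CPM in the reference EtOH libraries. PFK1 was called higher in the S10D-labelled strain in EtOH (0.15 ± 0.045, adjusted p = 0.0102), with no overlap between the strains, and PFK2 was called in no comparison over all 12 libraries. Without reference EtOH replicate 3, PFK1 was called higher (0.11, adjusted p = 0.00898) and PFK2 lower (-0.091, adjusted p = 0.0408) in the S10D-labelled strain in E2. The alpha subunit made up 54.8% ± 0.358 of the pair's counts per length in S10D E2 and 54.4% ± 0.638 in S10D EtOH, against 51.3% ± 0.105 in reference E2 and 49.8% ± 0.341 in reference EtOH (mean and SD of 3 libraries, as for every share given below).

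FBA1 (YKL060C, chrXI:326408-327487), which splits fructose bisphosphate, ranged from 6192 to 6399 CPM in S10D E2, 6645 to 6771 in S10D EtOH, 8107 to 8625 in reference E2 and 8843 to 10209 in reference EtOH. The strains did not overlap in either treatment, and FBA1 was lower in the S10D-labelled strain in E2 (-0.42 ± 0.050, adjusted p = 8.6e-06) and in EtOH (-0.48 ± 0.050, adjusted p = 1.72e-06). In the reference strain it was lower in E2 (-0.16 ± 0.050, adjusted p = 0.0204), a call lost without reference E2 replicate 1 or 3 (adjusted p = 0.0556 to 0.0852) and in a fit of only the strain's 6 libraries (adjusted p = 0.112), and the value was -0.092 without reference EtOH replicate 3. Triosephosphate isomerase (TPI1, YDR050C, chrIV:555726-556472), the single one of the 32 genes on chromosome IV, which loses its centromere in E2, ranged from 2282 to 2357 CPM in S10D E2, 2136 to 2264 in S10D EtOH, 2290.1 to 2449 in reference E2 and 2364 to 2706 in reference EtOH. It was called lower in the S10D-labelled strain in EtOH (-0.17 ± 0.052, adjusted p = 0.0106), a call lost without S10D EtOH replicate 1 (adjusted p = 0.0516), and was called in neither response to E2. Without reference EtOH replicate 3 the strain difference was -0.11. PGK1 (YCR012W, chrIII:137746-138996), which makes ATP from bisphosphoglycerate, ranged from 4550.1 to 4719 CPM in S10D E2, 4805 to 4905 in S10D EtOH, 5406 to 5638 in reference E2 and 4793 to 5420.4 in reference EtOH. It was lower in the S10D-labelled strain in E2 (-0.26 ± 0.047, adjusted p = 0.000307). Its small rise in E2 in the reference strain (0.15 ± 0.047, adjusted p = 0.0212) was lost without reference EtOH replicate 1 or 2 or reference E2 replicate 2 or 3 (adjusted p = 0.0596 to 0.0801).

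The 3 TDH genes encode isozymes of glyceraldehyde-3-phosphate dehydrogenase and share most of their sequence. A stretch of coding bases 366 to 425 is printed (build R64, with TDH1 at chrX:338636-338695 on the plus strand, TDH2 at chrX:454257-454316 and TDH3 at chrVII:883386-883445 on the minus strand). Among stretches of 60 bases in which TDH2 and TDH3 are identical, it was chosen for the most differences from TDH1. TDH2 and TDH3 are identical over these 60 bases, and capitals mark the 17 positions at which TDH1 differs from both, so reads from here separate TDH1 from the others and cannot separate TDH2 from TDH3.
TDH1: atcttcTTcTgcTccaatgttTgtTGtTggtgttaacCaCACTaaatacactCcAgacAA
TDH2: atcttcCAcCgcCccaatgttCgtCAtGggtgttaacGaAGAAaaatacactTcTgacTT
TDH3: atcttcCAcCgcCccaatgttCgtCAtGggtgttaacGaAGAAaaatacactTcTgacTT
Over the whole coding sequence, TDH1 was identical to TDH3 at 88.9% of aligned bases with a longest identical run of 92 bases, and TDH2 to TDH3 at 95.8% with a longest run of 173. TDH1 (YJL052W, chrX:338271-339269) had 1074, 1101 and 1155 CPM in the S10D E2 libraries and 1526, 1539 and 1532 CPM in the S10D EtOH libraries. TDH1 in the reference strain had 2236, 2449.6 and 2303 CPM in the E2 libraries and 2368, 2433 and 2438 CPM in the EtOH libraries. All 6 S10D-labelled libraries lay below all 6 reference libraries, and in the S10D-labelled strain the E2 libraries lay below the EtOH libraries. TDH1 was lower in the S10D-labelled strain by a fold of 2.10 in E2 (-1.07 ± 0.043, adjusted p = 5.42e-11) and 1.57 in EtOH (-0.65 ± 0.043, adjusted p = 1.09e-08). E2 lowered it in the S10D-labelled strain (-0.47 ± 0.043, adjusted p = 2.57e-05), the reference strain gave -0.051 ± 0.042, adjusted p = 0.354, and the difference of the responses was -0.41 ± 0.060, adjusted p = 0.00025.

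TDH2 (YJR009C, chrX:453683-454681) had 1053, 1049.5 and 1059 CPM in the S10D E2 libraries, 1095, 1102 and 1073 CPM in the S10D EtOH libraries, 1288, 1384 and 1346 CPM in the reference E2 libraries and 1212, 1229 and 1481 CPM in the reference EtOH libraries. TDH3 (YGR192C, chrVII:882812-883810) had 11513, 11125 and 11013 CPM in the S10D E2 libraries, 12199.6, 11996 and 11606 CPM in the S10D EtOH libraries, 9528, 10447 and 9719.9 CPM in the reference E2 libraries and 9170.4, 9261 and 10300.0 CPM in the reference EtOH libraries. TDH2 was lower in the S10D-labelled strain in E2 (-0.35 ± 0.063, adjusted p = 0.000368) and in EtOH (-0.26 ± 0.063, adjusted p = 0.00266, and -0.16 without reference EtOH replicate 3). TDH3 was higher there in E2 (0.18 ± 0.051, adjusted p = 0.00838) and in EtOH (0.32 ± 0.051, adjusted p = 0.000111). As a share of TDH counts, TDH1 made up 8.30% ± 0.428 in S10D E2 and 10.5% ± 0.241 in S10D EtOH, against 17.2% ± 0.0507 in reference E2 and 18.2% ± 0.907 in reference EtOH. TDH3 made up 83.8% ± 0.574 in S10D E2 and 82.0% ± 0.323 in S10D EtOH, against 73.0% ± 0.228 in reference E2 and 72.0% ± 0.395 in reference EtOH.

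Phosphoglycerate mutase is made chiefly from GPM1 (YKL152C, chrXI:163642-164385), and GPM3 (YOL056W, chrXV:223268-224179) is a homolog with little activity. GPM1 had 4359, 4162 and 4169 CPM in the S10D E2 libraries, 4560.3, 4501 and 4443 CPM in the S10D EtOH libraries, 5094, 5382 and 5308 CPM in the reference E2 libraries and 5124, 5248 and 6863 CPM in the reference EtOH libraries. GPM3 had 38.1, 38.0 and 36.0 CPM in the S10D E2 libraries, 38.7, 36.4 and 38.4 CPM in the S10D EtOH libraries, 46.4, 40.6 and 48.5 CPM in the reference E2 libraries and 48.2, 48.3 and 54.1 CPM in the reference EtOH libraries. GPM1 was lower in the S10D-labelled strain in E2 (-0.31 ± 0.085, adjusted p = 0.00744) and in EtOH (-0.35 ± 0.085, adjusted p = 0.00337, and -0.20 without reference EtOH replicate 3). GPM3 was lower too, in E2 (-0.27 ± 0.075, adjusted p = 0.00683) and in EtOH (-0.41 ± 0.075, adjusted p = 0.00034). Replicate 3 of reference EtOH held the highest value of each gene.

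Enolase makes phosphoenolpyruvate; ENO2 is known as the isozyme induced by glucose and ENO1 as the one less dependent on it. ENO1 (YGR254W, chrVII:1000927-1002240) had 1742, 1804 and 1839.9 CPM in the S10D E2 libraries, 1867, 1927 and 1956 CPM in the S10D EtOH libraries, 2468, 2716 and 2685 CPM in the reference E2 libraries and 1824, 1920.2 and 2363 CPM in the reference EtOH libraries. ENO2 (YHR174W, chrVIII:451327-452640) had 4632, 4556 and 4437 CPM in the S10D E2 libraries, 4887, 4862 and 4823 CPM in the S10D EtOH libraries, 3459.7, 3787 and 3698 CPM in the reference E2 libraries and 3534, 3790.3 and 4325 CPM in the reference EtOH libraries. ENO1 rose in E2 in the reference strain by a fold of 1.29 (0.37 ± 0.077, adjusted p = 0.00186), the S10D-labelled strain gave -0.094 ± 0.077, adjusted p = 0.598, and the responses differed by -0.46 ± 0.11, adjusted p = 0.00951. In E2, ENO1 was lower in the S10D-labelled strain (-0.55 ± 0.077, adjusted p = 5.2e-05) and ENO2 higher (0.32 ± 0.061, adjusted p = 0.000603). In EtOH, ENO2 was higher (0.32 ± 0.061, adjusted p = 0.000443). ENO1 and ENO2 are identical at 94.8% of aligned coding bases, and how reads that fit both were counted was not tested. ENO1 made up 28.3% ± 0.992 of enolase counts in S10D E2 and 28.3% ± 0.611 in S10D EtOH, against 41.8% ± 0.222 in reference E2 and 34.3% ± 0.892 in reference EtOH.

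Pyruvate kinase ends glycolysis by making pyruvate and ATP; CDC19 (YAL038W, chrI:71786-73288) is the main gene and PYK2 (YOR347C, chrXV:984942-986462) a minor one repressed by glucose. CDC19 had 5554, 5563 and 5456 CPM in the S10D E2 libraries, 5869, 5929.8 and 5889.5 CPM in the S10D EtOH libraries, 4736, 5211 and 5176 CPM in the reference E2 libraries and 5046, 5267 and 6051 CPM in the reference EtOH libraries. PYK2 had 74.9, 75.5 and 72.5 CPM in the S10D E2 libraries, 80.8, 77.5 and 81.8 CPM in the S10D EtOH libraries, 60.2, 67.2 and 70.3 CPM in the reference E2 libraries and 69.1, 66.8 and 72.5 CPM in the reference EtOH libraries. PYK2 was higher in the S10D-labelled strain in E2 (0.17 ± 0.060, adjusted p = 0.0249) and in EtOH (0.20 ± 0.060, adjusted p = 0.00946). Its call in E2 was lost without reference E2 replicate 1 (adjusted p = 0.0851) or S10D E2 replicate 2 (adjusted p = 0.0760). CDC19 was called in no comparison over all 12 libraries, and without reference EtOH replicate 3 it was called higher in the S10D-labelled strain in EtOH (0.19, adjusted p = 0.00013) and in E2 (0.13, adjusted p = 0.0020).

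Pyruvate decarboxylase turns pyruvate into acetaldehyde, the branch point to ethanol. PDC1 (YLR044C, chrXII:232390-234081), its main gene, had 12463, 12536 and 12272 CPM in the S10D E2 libraries and 12883, 12575 and 12418 CPM in the S10D EtOH libraries. PDC1 in the reference strain had 6016, 6669 and 6456 CPM in the E2 libraries and 6846, 7338 and 8985 CPM in the EtOH libraries. All S10D-labelled libraries lay above all reference libraries, and PDC1 was higher in the S10D-labelled strain by a fold of 1.95 in E2 (0.96 ± 0.078, adjusted p = 2.47e-07) and 1.63 in EtOH (0.71 ± 0.078, adjusted p = 4.36e-06). E2 lowered PDC1 in the reference strain (-0.28 ± 0.078, adjusted p = 0.0115), a call lost without reference E2 replicate 1 (adjusted p = 0.0563), and the value was -0.15 without reference EtOH replicate 3. PDC5 (YLR134W, chrXII:410723-412414), which is known to be held down while PDC1 is active, had 57.9, 59.9 and 60.7 CPM in the S10D E2 libraries and 42.0, 43.4 and 41.2 CPM in the S10D EtOH libraries. PDC5 in the reference strain had 43.0, 47.7 and 44.3 CPM in the E2 libraries and 31.5, 27.9 and 25.4 CPM in the EtOH libraries. E2 raised PDC5 in both strains without overlap, by a fold of 1.41 in the S10D-labelled strain (0.50 ± 0.073, adjusted p = 0.0014) and 1.59 in the reference strain (0.67 ± 0.075, adjusted p = 7.66e-06). The difference of these responses was -0.18 ± 0.10, adjusted p = 0.26. PDC5 was also higher in the S10D-labelled strain within E2 (0.40 ± 0.071, adjusted p = 0.00028) and within EtOH (0.58 ± 0.077, adjusted p = 1.9e-05).

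PDC6 (YGR087C, chrVII:651290-652981), the isozyme that contributes least on glucose, had 2.69, 2.94 and 2.75 CPM in the S10D E2 libraries and 3.14, 2.65 and 2.57 CPM in the S10D EtOH libraries. PDC6 in the reference strain had 28.4, 29.4 and 27.1 CPM in the E2 libraries and 15.3, 15.5 and 10.7 CPM in the EtOH libraries. The 6 S10D-labelled libraries held 24 to 32 counts of it each, so their values carry wide counting error. PDC6 was lower in the S10D-labelled strain by a fold of 10.1 in E2 (-3.33 ± 0.15, adjusted p = 2.46e-10) and 4.91 in EtOH (-2.30 ± 0.17, adjusted p = 3.98e-08). E2 raised it in the reference strain by a fold of 2.05 (1.04 ± 0.12, adjusted p = 8.23e-06), the S10D-labelled strain gave 0.0026 ± 0.22, adjusted p = 0.996, and the responses differed by -1.03 ± 0.25, adjusted p = 0.0109. The groups of the reference strain did not overlap.

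Alcohol dehydrogenase reduces acetaldehyde to ethanol, and ADH2 catalyses the reverse step when ethanol is the carbon source. ADH1 (YOL086C, chrXV:159548-160594), the fermentative enzyme, had 3664, 3584 and 3609.8 CPM in the S10D E2 libraries and 3739, 3793 and 3790.2 CPM in the S10D EtOH libraries. ADH1 in the reference strain had 4446, 4763 and 4847 CPM in the E2 libraries and 4741, 5061 and 5644 CPM in the EtOH libraries. ADH1 was lower in the S10D-labelled strain in E2 (-0.37 ± 0.055, adjusted p = 6.58e-05) and in EtOH (-0.45 ± 0.056, adjusted p = 9.98e-06), and the strains did not overlap. ADH2 (YMR303C, chrXIII:873291-874337) had 7.00, 6.61 and 6.01 CPM in the S10D E2 libraries and 3.63, 4.42 and 4.32 CPM in the S10D EtOH libraries. ADH2 in the reference strain had 6.67, 5.63 and 6.06 CPM in the E2 libraries and 3.67, 3.28 and 3.28 CPM in the EtOH libraries. E2 raised ADH2 without overlap in the S10D-labelled strain by a fold of 1.59 (0.67 ± 0.14, adjusted p = 0.0183) and in the reference strain by 1.80 (0.84 ± 0.14, adjusted p = 0.00031), and the difference of the responses was -0.18 ± 0.21, adjusted p = 0.631. The call in the S10D-labelled strain was lost when any one of S10D EtOH replicates 1 to 3 or S10D E2 replicates 1 and 2 was left out (adjusted p = 0.0542 to 0.103). ADH2 is identical to ADH1 at 88.8% of aligned coding bases with an identical run of 189 bases, and the part of reads of ADH1 in the counts of ADH2 was not tested. ADH2 made up 0.164% ± 0.0111 of the counts of the 4 ADH genes per length in S10D E2 and 0.0994% ± 0.00962 in S10D EtOH, against 0.120% ± 0.0154 in reference E2 and 0.0605% ± 0.00908 in reference EtOH.

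ADH3 (YMR083W, chrXIII:434788-435915), the mitochondrial isozyme, had 366, 352 and 342 CPM in the S10D E2 libraries and 361, 365 and 358 CPM in the S10D EtOH libraries. ADH3 in the reference strain had 399, 442 and 451 CPM in the E2 libraries and 477, 498 and 636 CPM in the EtOH libraries. It was lower in the S10D-labelled strain in E2 (-0.29 ± 0.088, adjusted p = 0.0149) and in EtOH (-0.57 ± 0.088, adjusted p = 0.000104), and lower in E2 in the reference strain (-0.32 ± 0.087, adjusted p = 0.00997). The response to E2 in the reference strain was -0.18 without reference EtOH replicate 3 and lost its call without reference E2 replicate 1 (adjusted p = 0.0504). The call of the strain difference in E2 was lost without reference E2 replicate 2 or 3 or S10D E2 replicate 3 (adjusted p = 0.0553 to 0.0713). ADH5 (YBR145W, chrII:533762-534817), a minor isozyme, had 25.4, 28.3 and 26.7 CPM in the S10D E2 libraries and 30.1, 30.9 and 28.7 CPM in the S10D EtOH libraries. ADH5 in the reference strain had 42.6, 43.1 and 40.6 CPM in the E2 libraries and 40.7, 36.4 and 43.7 CPM in the EtOH libraries. It was lower in the S10D-labelled strain in E2 (-0.65 ± 0.075, adjusted p = 5.89e-06) and in EtOH (-0.43 ± 0.076, adjusted p = 0.000242) and was called in neither response to E2.

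**Figure D4:**
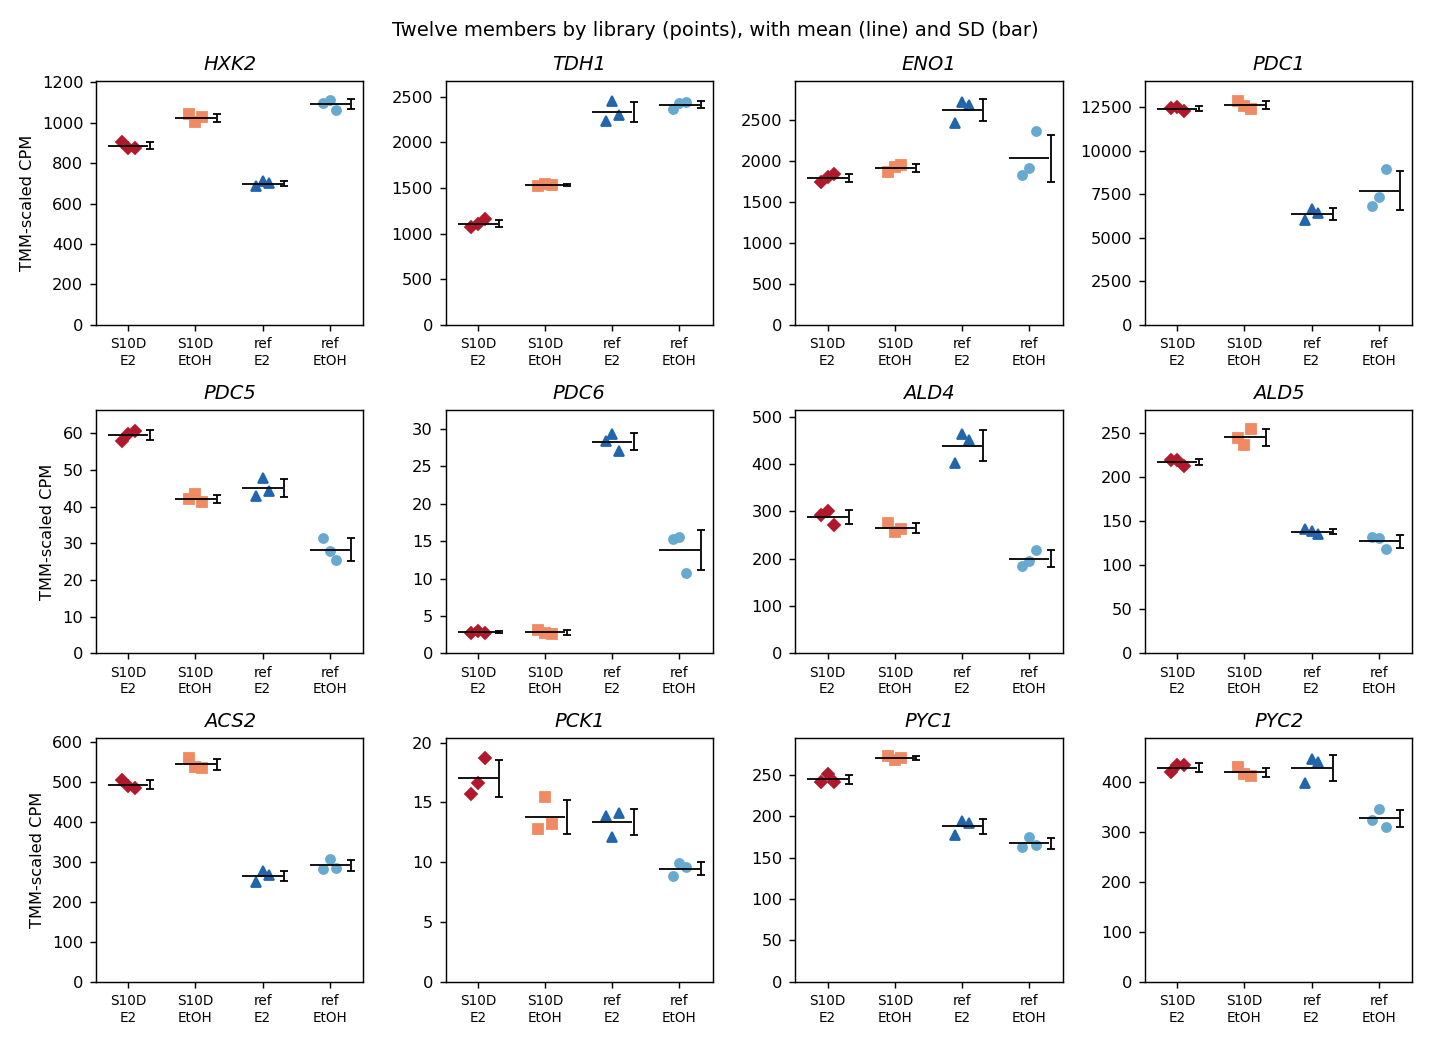
TMM-scaled CPM of 12 of the genes in each library (points), grouped by strain and treatment, with the mean (line) and SD (bar) of 3 libraries on axes that start at 0. In the reference strain ALD4, PDC6, PDC5 and PYC2 are higher in E2 than in EtOH without overlap, and TDH1 and PDC6 are lower in all S10D-labelled libraries than in any reference library.

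Aldehyde dehydrogenases oxidise acetaldehyde to acetate, ALD4 and ALD5 in mitochondria and ALD6 in the cytosol. ALD4 (YOR374W, chrXV:1039840-1041399) had 292, 300.1 and 272 CPM in the S10D E2 libraries and 276, 256 and 263 CPM in the S10D EtOH libraries. ALD4 in the reference strain had 401, 464 and 449.9 CPM in the E2 libraries and 184, 195 and 219 CPM in the EtOH libraries. E2 raised ALD4 in the reference strain by a fold of 2.198 (1.14 ± 0.070, adjusted p = 3.23e-08), the largest log2 fold change of the 32 in that comparison, and the S10D-labelled strain gave 0.12 ± 0.069, adjusted p = 0.418. The responses differed by -1.02 ± 0.10, adjusted p = 8.96e-06. The S10D-labelled strain had more ALD4 RNA than the reference strain in EtOH (0.41 ± 0.070, adjusted p = 0.00019) and less in E2 (-0.61 ± 0.069, adjusted p = 4.8e-06), with no overlap in either.

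ALD5 (YER073W, chrV:304030-305592) had 218, 218 and 212 CPM in the S10D E2 libraries and 244, 235 and 254 CPM in the S10D EtOH libraries. ALD5 in the reference strain had 140.4, 138 and 135 CPM in the E2 libraries and 132, 130.1 and 119 CPM in the EtOH libraries. All S10D-labelled libraries lay above all reference libraries, by a fold of 1.57 in E2 (0.65 ± 0.049, adjusted p = 5.95e-08) and 1.93 in EtOH (0.95 ± 0.049, adjusted p = 8.31e-10). Its responses to E2 were -0.18 ± 0.048, adjusted p = 0.0564 in the S10D-labelled strain and 0.12 ± 0.050, adjusted p = 0.0686 in the reference strain, neither of them called by edgeR over all 12 libraries, and their difference was called (-0.29 ± 0.069, adjusted p = 0.00843). The response in the S10D-labelled strain was called by DESeq2, and by edgeR without reference EtOH replicate 3 (-0.18, adjusted p = 0.000996). ALD6 (YPL061W, chrXVI:432588-434090), which also supplies cytosolic NADPH, had 499, 471 and 474 CPM in the S10D E2 libraries and 589, 579 and 561 CPM in the S10D EtOH libraries. ALD6 in the reference strain had 522, 576 and 556 CPM in the E2 libraries and 585, 604 and 451 CPM in the EtOH libraries. It was called in no comparison over all 12 libraries. Replicate 3 of reference EtOH was its lowest library of that group, and without it ALD6 was called lower in E2 in the S10D-labelled strain (-0.26, adjusted p = 1.6e-05) and in the reference strain (-0.11, adjusted p = 0.0322), and lower in S10D E2 than in reference E2 (-0.19, adjusted p = 6.47e-05). ALD4 made up 28.7% ± 1.01 of the counts of the 3 ALD genes per length in S10D E2 and 23.9% ± 0.480 in S10D EtOH, against 38.1% ± 0.975 in reference E2 and 22.5% ± 4.03 in reference EtOH.

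Acetyl-CoA synthetase activates acetate; ACS1 is repressed by glucose and ACS2 is not. ACS1 (YAL054C, chrI:42881-45022) had 16.4, 15.2 and 20.1 CPM in the S10D E2 libraries, 16.0, 18.7 and 17.0 CPM in the S10D EtOH libraries, 22.02, 21.1 and 20.7 CPM in the reference E2 libraries and 18.6, 17.9 and 18.8 CPM in the reference EtOH libraries. ACS2 (YLR153C, chrXII:445524-447575) had 506, 489.7 and 486 CPM in the S10D E2 libraries, 561, 537 and 536 CPM in the S10D EtOH libraries, 251, 277 and 267 CPM in the reference E2 libraries and 282, 308 and 285 CPM in the reference EtOH libraries. ACS2 was higher in every S10D-labelled library than in any reference library, by a fold of 1.86 in E2 (0.90 ± 0.049, adjusted p = 1.65e-09) and 1.87 in EtOH (0.90 ± 0.049, adjusted p = 1.22e-09). ACS1 was lower in the S10D-labelled strain in E2 (-0.31 ± 0.10, adjusted p = 0.0181), a call lost without reference E2 replicate 1 or S10D E2 replicate 1 or 2 (adjusted p = 0.0671 to 0.0992). The decrease of ACS2 in E2 in the reference strain (-0.14 ± 0.049, adjusted p = 0.0325) was lost without reference EtOH replicate 2 or reference E2 replicate 1 or 3 (adjusted p = 0.0744 to 0.146) and with TMM factors taken without chromosome IV (adjusted p = 0.0631).

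Gluconeogenesis bypasses the irreversible steps of glycolysis through fructose-1,6-bisphosphatase (FBP1) and phosphoenolpyruvate carboxykinase (PCK1), and pyruvate carboxylase (PYC1 and PYC2) makes the oxaloacetate that PCK1 uses and that also refills the citric acid cycle. FBP1 (YLR377C, chrXII:873746-874792) ranged from 4.41 to 4.87 CPM in S10D E2, 5.19 to 6.08 in S10D EtOH, 4.42 to 4.80 in reference E2 and 2.85 to 5.01 in reference EtOH, and was called in no comparison. PCK1 (YKR097W, chrXI:631152-632801) had 15.7, 16.6 and 18.8 CPM in the S10D E2 libraries and 12.8, 15.5 and 13.2 CPM in the S10D EtOH libraries. PCK1 in the reference strain had 13.9, 12.1 and 14.1 CPM in the E2 libraries and 8.89, 9.93 and 9.59 CPM in the EtOH libraries. E2 raised PCK1 in the reference strain by a fold of 1.41 without overlap (0.50 ± 0.11, adjusted p = 0.00271). The S10D-labelled strain gave 0.31 ± 0.11, adjusted p = 0.14, also without overlap. The difference of the responses was -0.19, adjusted p = 0.421, and was not called. PCK1 was higher in the S10D-labelled strain in E2 (0.35 ± 0.11, adjusted p = 0.0133) and in EtOH (0.54 ± 0.12, adjusted p = 0.00121); the call in E2 was lost without reference E2 replicate 2 (adjusted p = 0.0509) or S10D E2 replicate 3 (adjusted p = 0.0703).

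PYC1 (YGL062W, chrVII:385196-388732) had 241, 251 and 241 CPM in the S10D E2 libraries, 272, 268 and 271 CPM in the S10D EtOH libraries, 177, 194 and 192 CPM in the reference E2 libraries and 162, 175 and 166 CPM in the reference EtOH libraries. PYC2 (YBR218C, chrII:658707-662249) had 418, 433 and 433 CPM in the S10D E2 libraries, 429, 416 and 412 CPM in the S10D EtOH libraries, 398, 445 and 439 CPM in the reference E2 libraries and 323, 345 and 310.3 CPM in the reference EtOH libraries. E2 raised PYC2 in the reference strain without overlap (0.39 ± 0.052, adjusted p = 3.84e-05) and PYC1 (0.16 ± 0.047, adjusted p = 0.012), and the call of PYC1 was lost without reference E2 replicate 2 (adjusted p = 0.0539). The S10D-labelled strain gave 0.031 ± 0.052, adjusted p = 0.824 for PYC2 and -0.14 ± 0.046, adjusted p = 0.102 for PYC1, and the differences of the responses were -0.36 ± 0.073, adjusted p = 0.00344 for PYC2 and -0.31 ± 0.066, adjusted p = 0.00453 for PYC1. Without reference EtOH replicate 3, PYC1 was called lower in E2 in the S10D-labelled strain (-0.14, adjusted p = 0.00958). PYC1 was higher in the S10D-labelled strain in E2 (0.38 ± 0.046, adjusted p = 9.44e-06) and in EtOH (0.69 ± 0.047, adjusted p = 1.63e-08). PYC2 was higher in EtOH (0.36 ± 0.052, adjusted p = 4.07e-05) and gave 0.0046 ± 0.052, adjusted p = 0.945 in E2. PYC1 made up 36.4% ± 0.497 of pyruvate carboxylase counts per length in S10D E2 and 39.3% ± 0.412 in S10D EtOH, against 30.6% ± 0.234 in reference E2 and 34.0% ± 0.741 in reference EtOH.

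The response to E2 differed between the strains, S10D-labelled minus reference, for 9 of the 32 genes. HXK2 was called higher, since it fell less in the S10D-labelled strain, and TDH1, PGK1, ENO1, PDC6, ALD4, ALD5, PYC1 and PYC2 were called lower. Over all features 20.4% were called (9.82% higher and 10.6% lower), and the median of the 32 was -0.11, against 0.0076 over all features. By step, 1 of 16 glycolytic genes was called higher and 3 lower, 1 of 7 fermentation genes lower, 2 of 5 acetate genes lower and 2 of 4 gluconeogenesis genes lower. Without reference EtOH replicate 3 the count was 13 (1 higher and 12 lower), where 33.1% of all features were called. The added genes were TDH2 (-0.18, adjusted p = 0.00575), TDH3 (-0.19, adjusted p = 0.00689), ADH5 (-0.28, adjusted p = 0.0344) and ALD6 (-0.15, adjusted p = 0.0435). The call of PGK1 was lost in 10 of the 12 fits that left out a library (adjusted p = 0.0503 to 0.0849).

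The general stress genes moved with the reference strain's response. The 10 of them examined summed to 5503 to 5649.7 CPM in S10D E2 and 5362 to 5463 in S10D EtOH, against 11130.1 to 11444 in reference E2 and 5670.1 to 6032 in reference EtOH. In E2, 1 of 10 was called higher and 2 lower in the S10D-labelled strain, 8 of 10 were called higher in the reference strain, and the difference of the responses was called lower for 8 of 10. Of all features, 2.42% were called higher and 2.14% lower in the S10D-labelled strain. In the reference strain 22.4% were called higher, and 10.6% were called lower in the difference. Their part in the responses of ALD4, PDC6, PCK1, PYC2 and the other genes called was not tested. Meiosis and sporulation markers (8 genes) summed to 87.2 to 94.4 CPM in S10D E2, 84.3 to 89.4 in S10D EtOH, 189 to 196 in reference E2 and 108 to 141 in reference EtOH. SPS100, a gene of spore wall maturation, had 5.50 to 7.16 CPM in S10D E2, 6.51 to 8.23 in S10D EtOH, 106 to 107 in reference E2 and 37.9 to 62.1 in reference EtOH. The 7 other markers summed to 80.6 to 87.2 CPM in S10D E2, 77.8 to 82.4 in S10D EtOH, 82.6 to 89.9 in reference E2 and 69.6 to 82.3 in reference EtOH. Their part was not tested.

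Promoters were searched for the letters read by the stress factors Msn2 and Msn4 and by the glycolytic activators Gcr1 and Rap1. The windows ran from 250 bases before to 50 bases after the start of the coding sequence, on both strands. AGGGG, read by Msn2 and Msn4, was found in 10 of 32 windows (31.3%), against 21.6% of 5988 windows of all genes. CTTCC, read by Gcr1, was in 18 of 32 (56.3%), against 46.4%, and CACCCA, the core of Rap1 sites, in 2 of 32 (6.25%), against 7.88%. AGGGG overlapped CTTCC in PYC1, and 2 copies of CTTCC overlapped in ADH1. Of the 9 genes called higher in E2 in the reference strain, 5 held AGGGG or its complement (ALD4, PYC2, PGK1, PYC1 and PCK1), and none of the 5 called lower did. The match of PCK1 lay within the coding sequence, and that of PYC1 began 17 bases before the start codon. The calls of PGK1 and PYC1 were lost in at least 1 fit that left out a library. CTTCC was in 5 of the 9 and 2 of the 5. The shares among all features called higher or lower were not computed. A match is a run of letters, not a shown site, and its absence says only that the letters are not in the window. The bases 250 to 101 before the start codon (build R64, RefSeq) are printed for 4 genes. ALD4 (plus strand of chrXV:1039590-1039739) and PYC2 (minus strand of chrII:662350-662499) rose in reference E2 and hold AGGGG or its complement CCCCT. TDH1 (plus strand of chrX:338021-338170) holds AGGGG and was not called there. PDC6 (minus strand of chrVII:653082-653231) rose and holds none of the motifs in this stretch. Capitals mark AGGGG or CCCCT and CTTCC or GGAAG.
ALD4: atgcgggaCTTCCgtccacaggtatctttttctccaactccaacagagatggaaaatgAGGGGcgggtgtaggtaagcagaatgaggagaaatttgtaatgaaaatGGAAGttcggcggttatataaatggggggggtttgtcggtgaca
PYC2: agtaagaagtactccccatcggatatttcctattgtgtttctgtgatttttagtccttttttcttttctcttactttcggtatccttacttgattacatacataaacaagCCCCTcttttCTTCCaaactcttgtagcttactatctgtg
TDH1: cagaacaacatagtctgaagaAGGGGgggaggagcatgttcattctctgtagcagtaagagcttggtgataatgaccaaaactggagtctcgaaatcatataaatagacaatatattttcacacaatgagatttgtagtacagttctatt
PDC6: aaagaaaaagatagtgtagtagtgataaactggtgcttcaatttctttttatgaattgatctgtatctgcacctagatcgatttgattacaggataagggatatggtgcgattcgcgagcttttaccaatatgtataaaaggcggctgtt
The first AGGGG of ALD4 starts 192 bases before the start codon, that of TDH1 229 bases, and the CCCCT of PYC2 140 bases. ALD4 also holds CTTCC at 242 and GGAAG at 144 bases, and PYC2 holds CTTCC at 130 bases.

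Isozyme balance was compared as the log2 ratio of 2 genes' counts within a library, which does not depend on scaling between libraries. For 14 pairs and 4 comparisons, 56 exact 2-sided permutation tests of 3 libraries against 3 were run, where the smallest possible p is 0.1. The pair PFK1/PFK2, subunits of the same enzyme and not isozymes, is included in these counts. That smallest p, which means no overlap, was reached by 34 of the 56: 5 of 14 for E2 in the S10D-labelled strain, 8 for E2 in the reference strain, 12 for the strains in E2 and 9 for the strains in EtOH. How often pairs of other genes separate in this way was not computed, so the count is not particular to isozymes. Of all single features, edgeR called 4.56%, 44.6%, 54.3% and 58.1% in these comparisons, in the same order. Adjusted over the 56, the smallest p was 0.165, so none passed 0.05 and this design could not reach it. The ratio PDC6/PDC1 was lower in the S10D-labelled strain (difference in log2 ratio -4.28 in E2 and -2.99 in EtOH) and higher in E2 in the reference strain (1.32). TDH1/TDH3 was lower in the S10D-labelled strain (-1.25 in E2 and -0.97 in EtOH), as was ACS1/ACS2 (-1.21 in E2 and -1.01 in EtOH). ALD5/ALD6 was higher in the S10D-labelled strain by 0.85 in E2 and 0.86 in EtOH. ALD4/ALD6 rose in E2 by 0.38 in the S10D-labelled strain and 1.12 in the reference strain, and PDC5/PDC1 by 0.52 in the S10D-labelled strain and 0.94 in the reference strain. ADH2/ADH1 rose by 0.72 in the S10D-labelled strain and 0.97 in the reference strain. ENO1/ENO2 was 0.46 higher in E2 in the reference strain without overlap and overlapped between treatments in the S10D-labelled strain. GPM3/GPM1 and PYK2/CDC19 overlapped in all 4 comparisons.

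**Figure D5:**
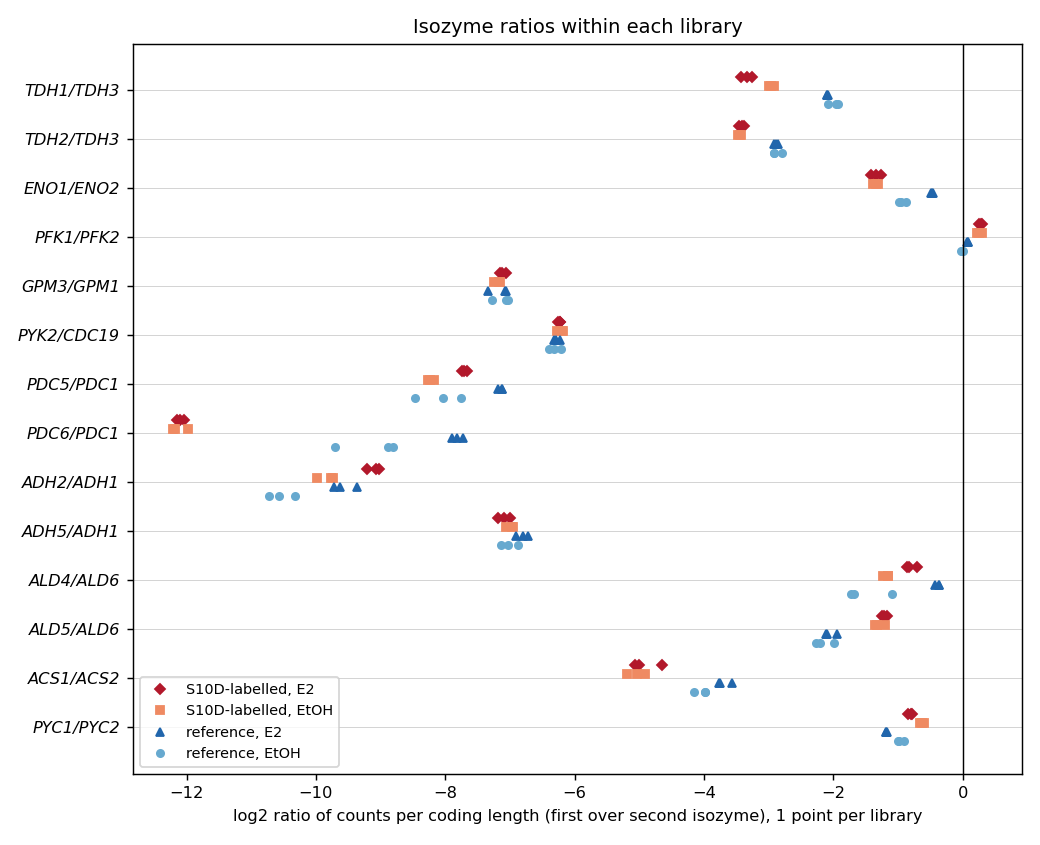
Log2 ratio of counts per coding length for 14 pairs, with 1 point per library, coloured by strain and treatment. The pairs are isozymes, except for the phosphofructokinase subunits PFK1/PFK2. For PDC6/PDC1, TDH1/TDH3, TDH2/TDH3, ENO1/ENO2 and ACS1/ACS2 all S10D-labelled libraries lie to the left of all reference libraries. For ALD5/ALD6, PFK1/PFK2 and PYC1/PYC2 they lie to the right.

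Neighbouring steps of the pathway were described from lists of other genes. Their counts stand against 44.6% of all features called for E2 in the reference strain and 4.56% in the S10D-labelled strain. Between the strains, 54.3% of all features were called in E2 and 58.1% in EtOH. The 3 enzymes that set the level of fructose-2,6-bisphosphate, the activator of phosphofructokinase, were all called higher in E2 in the reference strain: PFK26 (0.59 ± 0.057), FBP26 (0.44 ± 0.057) and PFK27 (0.39 ± 0.050). The first and the third of these are known mainly to make that compound, and FBP26 to break it down. In the S10D-labelled strain 1 of 3, PFK26, was called higher (0.24 ± 0.060, adjusted p = 0.0372). In the glycerol branch, 3 of 4 genes rose in E2 in the reference strain, among them the phosphatase GPP2 (0.47 ± 0.040, adjusted p = 6.65e-07), and the dehydrogenase GPD1 fell (-0.45 ± 0.072, adjusted p = 0.000172). Of 9 other isozymes and sugar kinases, 4 rose and 2 fell in E2 in the reference strain, led by the aldehyde dehydrogenase ALD3 (1.40 ± 0.072, adjusted p = 6.71e-09) and the glucokinase GLK1 (0.98 ± 0.060, adjusted p = 3.18e-08). In the S10D-labelled strain the 1 of these 9 that was called, ADH6, fell (-0.28 ± 0.052, adjusted p = 0.00661). Of the 7 genes of pyruvate entry to mitochondria, 1 was called higher and 2 lower in the S10D-labelled strain in EtOH, and 2 higher in E2. These called genes changed by at most 0.32 on the log2 scale. MPC2, not among them, had 347, 340 and 349 CPM in the S10D E2 libraries and 268, 235 and 249 CPM in the reference E2 libraries.

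Between the strains, the glutathione-dependent formaldehyde and alcohol dehydrogenase SFA1 was higher in the S10D-labelled strain by 2.87 ± 0.053 in E2 and 3.33 ± 0.055 in EtOH, and the NADPH-dependent alcohol dehydrogenase ADH6 by 2.03 ± 0.054 in E2 and 2.36 ± 0.055 in EtOH. ALD3 was lower in E2 (-2.76 ± 0.080) and in EtOH (-1.64 ± 0.084). Among 5 genes of the glyoxylate and malate steps, the peroxisomal citrate synthase CIT2 was higher in the S10D-labelled strain in E2 (2.09 ± 0.17, adjusted p = 1.22e-06) and in EtOH (2.09 ± 0.17, adjusted p = 1.1e-06), and the cytosolic malate dehydrogenase MDH2, which also serves gluconeogenesis, was lower in E2 (-1.89 ± 0.085, adjusted p = 1.99e-10) and in EtOH (-2.46 ± 0.086, adjusted p = 8.53e-12). Among 10 regulators, SIP4, an activator of gluconeogenic genes, rose in E2 in the reference strain (1.74 ± 0.21, adjusted p = 1.4e-05) at a level of 5.55, 4.51 and 4.29 CPM in reference E2, against 1.26, 1.25 and 1.73 CPM in reference EtOH. ADR1, the activator of ADH2, also rose there (0.72 ± 0.10, adjusted p = 0.000121). Of the 10 regulators 4 were called higher and 1 lower in E2 in the reference strain, where 22.4% of all features were called higher and 22.2% lower. For SIP4 the responses differed by -1.73 ± 0.27, adjusted p = 0.000434.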

How the data were processed

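Per the labels' protocols, stranded poly(A) libraries used 400 ng of total RNA and were amplified for 12 cycles. The authors deposited whole-number counts of reads per feature, with no normalization. Per the submitters' processing notes, bcl2fastq 2.20.0.422, cutadapt 1.10, STAR 2.5.3a and HTSeq 0.6.1p1 were used with builds R64 and sacCer3. The counting mode, strand setting, treatment of multi-mapping reads and annotation release are not given in the sources used here. No molecular identifiers are stated, so amplified reads need not be independent molecules.

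Columns were matched to samples by name. Features kept by filterByExpr (minimum count 10, minimum total 15), 5990 of 7127, were scaled by TMM and compared in edgeR 4.0.16 in R 4.3.3 (quasi-likelihood, robust, 2-sided, 4 group means over all 12 libraries, 8 residual degrees of freedom, common biological coefficient of variation 6.31%). A call needed a p under 0.05 after Benjamini-Hochberg adjustment across every feature tested. Libraries held 9362173 to 11806239 counts. CPM are TMM-scaled, and levels between genes are per kb of coding sequence. Isozyme log2 ratios used 0.5 added counts and exact 2-sided permutation tests. Names, positions and sequences came from the RefSeq genome of build R64, matched by locus tag for 6047 features, all 32 genes among them; features without a match held 0.325% to 0.545% of counts. Identity was taken from aligned coding sequences. The fit was tested on simulated data.

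Alternatives were DESeq2 size factors, TMM without chromosome IV or without the 32 genes, DESeq2 1.42.0, other filters, a replicate block, only the 6 libraries compared, a threshold of 0.01 and each library left out. Genes were named with values per library where called with a log2 fold change of 0.5 or more in size or in an isozyme pair, the others by range, and from each further list at most 4 called genes with the largest change. The 32 genes and the lists were chosen with earlier results of these data known.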

Additional observations from a re-analysis of the deposited data

Results flagged for a closer look

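The response to E2, S10D-labelled minus reference strain, was called different by a test of the difference itself (edgeR's quasi-likelihood test, Benjamini-Hochberg adjustment over all features) for 9 of the 32 genes, where 20.4% of all features were called (9.82% higher and 10.6% lower). HXK2, the main hexokinase, differed by 0.43 (adjusted p = 6.63e-05), and it fell in all 3 E2 libraries of both strains relative to every EtOH library. ALD4, mitochondrial acetaldehyde dehydrogenase, differed by -1.02 (adjusted p = 8.96e-06), and PDC6, the minor pyruvate decarboxylase, by -1.03 (adjusted p = 0.0109) at 24 to 32 counts per S10D-labelled library. ENO1, the enolase, differed by -0.46 (adjusted p = 0.00951), and TDH1, a glyceraldehyde-3-phosphate dehydrogenase, by -0.41 (adjusted p = 0.00025). The pyruvate carboxylases PYC2 and PYC1 differed by -0.36 (adjusted p = 0.00344) and -0.31 (adjusted p = 0.00453). ALD5, whose own responses were not called in either strain over all 12 libraries, differed by -0.29 (adjusted p = 0.00843). Without reference EtOH replicate 3, its response in the S10D-labelled strain was called lower (-0.18, adjusted p = 0.000996). PGK1, phosphoglycerate kinase, differed by -0.22 (adjusted p = 0.0339), a call lost in 10 of the 12 fits without a library. General stress genes differed with them (8 of 10 called lower in the same comparison), and their part in the result was not tested.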

How the results depend on the processing

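Among the 160 values of single genes (32 genes in 5 comparisons), 3318 log2 fold changes were computed under alternatives: 3134 kept their direction and their side of the threshold, 60 (15 values) lost the call, 73 (37 values) gained it and 51 (22 values, none of them called over all 12 libraries) changed sign. For the 89 of these that were called or are printed, 1766 of 1855 were kept, 60 lost the call, 16 gained it and 13 changed sign. The 14 genes called for E2 in the reference strain became 8 (7 higher, 1 lower) in a fit of only its 6 libraries (31.0% of all features), which lost FBA1, PGK1, PDC1, ADH3, ACS2 and PYC1, and 9 (7 higher, 2 lower) at an adjusted p under 0.01 (30.1%). The 4 called for E2 in the S10D-labelled strain became 7 with DESeq2 on all libraries (6.46% of all features). They became 18 (5 higher, 13 lower) in a fit of only its 6 libraries (23.5%) and 8 without reference EtOH replicate 3 (16.5%). Without reference EtOH replicate 1 or 2 instead, 5.02% and 4.77% of all features were called. The cause of these changes was not tested. With any 1 library left out, the counts ranged from 3 to 8 for E2 in the S10D-labelled strain, 11 to 18 for E2 in the reference strain, 8 to 13 for the difference of the responses, 21 to 28 for the strains in E2 and 22 to 25 for the strains in EtOH. In the same order, the share of all features called ranged from 1.69% to 16.5%, 35.5% to 52.1% and 15.1% to 33.1%. For the strains it was 46.9% to 66.3% in E2 and 51.9% to 65.4% in EtOH. The 13 changes of sign were in values near 0. With 1 library left out, ALD6 for E2 in the reference strain ranged from -0.109 (without reference EtOH replicate 3) to 0.0893, ENO1 between the strains in EtOH from -0.161 to 0.0346 (without reference EtOH replicate 3), PDC6 for E2 in the S10D-labelled strain from -0.0545 (without S10D EtOH replicate 3) to 0.101, and PYC2 between the strains in E2 from -0.0327 (without reference E2 replicate 1) to 0.0480. PDC6 was also -0.0101 with DESeq2 size factors and -0.0100 with DESeq2, and PYC2 -0.00486 with TMM without chromosome IV and -0.000399 with 6 libraries. The count of 34 ratios without overlap (PFK1/PFK2 included) became 35 with 5 added counts and ranged from 34 to 40 with 1 library left out. A group that has lost a library overlaps another less readily, so a higher count there is not a stronger result. The depth limits PDC6, ADH2 and FBP1, which were at most 7.00 CPM in any S10D-labelled library.

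The replicate numbers were not shown to pair libraries: deviations of same-numbered libraries from their group means correlated between -0.0529 and 0.106 across the 4 comparisons of groups. With the replicate block, 4 genes were called for E2 in the S10D-labelled strain, 17 for E2 in the reference strain, 9 for the difference of the responses, 24 for the strains in E2 and 24 for the strains in EtOH.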
